A study of Mus musculus with 31 samples.

Results

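The comparison described here is the response of the AKR mouse lung to lipopolysaccharide (LPS) after exposure to cigarette smoke. It rests on 5 of the 31 arrays of the study, chosen by their titles: 2 arrays of smoke-exposed mice given LPS in saline, which are all there are, and 3 arrays of smoke-exposed mice given normal saline alone. AKR is an inbred strain. The labels give all these mice as male and 6 weeks old and name no engineered allele. LPS or saline was instilled through the trachea, and RNA of the homogenized lung was measured on Affymetrix arrays. The titles give these groups 3 weeks of smoke, whereas the series description gives instilled mice 6 weeks, so the exposure time is uncertain. The LPS dose and the time from instillation to dissection are not given in the sources used here. For comparison, 3 AKR arrays each had room air with LPS and room air with saline. Another 2 AKR arrays of room air alone, titled 3 weeks, entered the fit, and 3 arrays each of C57 mice (C57BL/6 in the series title) had smoke with LPS and smoke with saline. The fit of the strain comparison also held the other arrays of the study. These were 3 arrays each of AKR and C57 mice with room air alone titled 6 weeks, and 3 each of C57 mice with air and saline and with air and LPS.

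LPS, the endotoxin of the outer membrane of Gram-negative bacteria, is passed by LBP and CD14 to a receptor made of TLR4 and MD-2. That receptor signals through MyD88 to the transcription factor NF-kB and through TRIF to IRF3 and the type I interferons. In the lung, macrophages and epithelium respond with cytokines and with chemokines that draw neutrophils and monocytes from the blood, and cigarette smoke by itself induces detoxifying and antioxidant enzymes through the aryl hydrocarbon receptor and NRF2.

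Values are log2 intensities of 1 probe set per gene, so a difference of 1 is a doubling. The markers of lung were present: the surfactant gene Sftpc lay between 13.49 and 13.72 and the club cell gene Scgb1a1 between 13.64 and 13.76 on the saline arrays, whose brightest probe sets lay between 14.1 and 14.3. Across genes, the 3 smoke saline arrays correlated with each other at 0.975 to 0.987, both smoke LPS arrays at 0.989, and arrays of different treatment at 0.876 to 0.908. Principal component 1 held 61.8% of the variance among the 13 AKR arrays of the fit and separated LPS from the rest. A pair of C57 arrays used in the last comparison went against their labels. The acute-phase gene Saa3 was at 12.5 on the array labelled C57 smoke saline 3 and at 6.06 on that labelled C57 smoke LPS 3. The other C57 smoke saline arrays had 6.10 and 6.36 and the other smoke LPS arrays 12.6 and 12.8. Results that rest on these arrays are given with and without them.

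LPS changed genes in both directions in smoke-exposed AKR lung, and the large changes ran upward. Of 14370 genes tested with limma, 4531 passed at an adjusted p under 0.05 (31.5%), of which 2371 rose (16.5%) and 2160 fell (15%). The median change over all genes was -0.00. Among genes that passed, 765 rose and 464 fell by at least 1 log2 unit, 258 rose and 15 fell by at least 2, and 92 rose and 1 fell by at least 3. Both LPS arrays lay above all saline arrays for 29.9% of genes and below all of them for 29.1%. Groups without overlap are therefore common here, and such statements on single genes below only describe the values. Without smoke LPS 1 the number that passed was 2405, and without smoke LPS 2 it was 2353. Changes below are LPS minus saline with the standard error of the limma fit (n = 2 LPS and 3 saline arrays), p is adjusted over all genes tested, and "rose" and "fell" are kept for genes that passed. In homogenized lung, more cells of a type and more RNA per cell cannot be told apart, nor can fewer cells and less RNA.

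The cytokine and chemokine genes were the list with the largest median change, at 3.83 against -0.00 over all genes: 21 of 23 measured members rose. The neutrophil chemokine Cxcl2 had 6.40, 6.09 and 6.59 on the saline arrays and 12.29 and 12.02 on the LPS arrays, a rise of 5.80 ± 0.36 (adjusted p = 1.1e-06), or 55.6-fold. The monocyte and neutrophil attractant Ccl3 went from 6.79, 7.04 and 7.98 to 13.29 and 13.11 (5.93 ± 0.44, adjusted p = 3.9e-06). In neither gene did the groups overlap, and among the saline arrays smoke saline 3 was the highest for both. The related chemokine genes Cxcl1 and Cxcl3 rose by 3.26 ± 0.21 and 4.52 ± 0.16. Ccl2, which draws monocytes, rose by 4.67 ± 0.27 from 6.55, 6.58 and 6.38.

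The promoters of the CXC chemokine genes Cxcl1, Cxcl2 and Cxcl3 and of the cytokine gene Il6, which all rose, are shown. They were chosen because they carry the sequence pattern bound by NF-kB, so its presence in them is not a result. Each is the 150 bases before the annotated start of the gene in RefSeq (build GRCm38.p6), read 5′ to 3′ on the gene's own strand, which is the plus strand. Capitals mark every match, on either strand, to GGG followed by any 2 bases and TTTCC.
Cxcl1, chr5:90891095-90891244: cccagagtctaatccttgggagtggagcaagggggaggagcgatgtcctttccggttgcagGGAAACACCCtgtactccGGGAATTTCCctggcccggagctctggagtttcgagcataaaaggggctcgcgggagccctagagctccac
Cxcl2, chr5:90903749-90903898: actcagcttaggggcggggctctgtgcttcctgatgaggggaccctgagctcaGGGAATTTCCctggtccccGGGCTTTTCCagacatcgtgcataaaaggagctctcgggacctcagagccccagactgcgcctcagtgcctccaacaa
Cxcl3, chr5:90785951-90786100: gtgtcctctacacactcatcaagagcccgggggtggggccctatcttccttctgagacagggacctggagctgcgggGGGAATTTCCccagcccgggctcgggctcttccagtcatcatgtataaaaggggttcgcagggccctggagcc
Il6, chr5:30012964-30013113: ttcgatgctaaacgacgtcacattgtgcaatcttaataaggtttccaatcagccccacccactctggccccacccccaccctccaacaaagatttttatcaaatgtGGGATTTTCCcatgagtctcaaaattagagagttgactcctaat

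Cxcl1 and Cxcl2 each held 2 matches, beginning 89 and 71 bases before the start in Cxcl1 and 97 and 78 bases before it in Cxcl2. Cxcl3 held 1 match at 73 bases and Il6 held 1 at 44 bases. Of the 23 cytokine and chemokine genes tested, 17 had a promoter in the RefSeq set, and 5 of these held the pattern (Ccl20 besides the 4 shown). The pattern was found in 378 of all 27025 promoters, or 1.40%, each counted over the 250 bases before the start. A match is a description of the letters and not evidence of binding in these lungs.

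The interleukin and tumour necrosis factor genes rose with the chemokines. Il1b, the inflammasome-processed cytokine, had 6.69, 6.98 and 7.86 with saline and 12.13 and 11.92 with LPS (4.85 ± 0.31, adjusted p = 1.4e-06). Tnf, the early macrophage cytokine, had 6.33, 6.16 and 6.23 with saline and 10.50 and 10.70 with LPS, a rise of 4.36 ± 0.35. Every LPS array exceeded every saline array for both genes. Il6, which drives acute-phase genes, was at 3.86, 4.32 and 3.49 with saline and at 8.78 and 8.41 with LPS (4.71 ± 0.37). Those saline values lie below the 20th percentile of their arrays (4.92 to 5.01), and no detection call comes with the data, so the size of its fold is uncertain. Il1a rose by 5.36 ± 0.42, Il1f9 (the epithelial cytokine IL-36 gamma) by 4.83 ± 0.24, and Il1rn, the natural antagonist of the interleukin 1 receptor, by 4.34 ± 0.22. Csf3, the granulocyte colony-stimulating factor, rose by only 0.80 ± 0.17. The members that did not pass were Ifng, at 2.19 ± 0.90 (adjusted p = 0.086), and Il12b, at 0.98 ± 0.42 (adjusted p = 0.097).

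**Figure D1:**
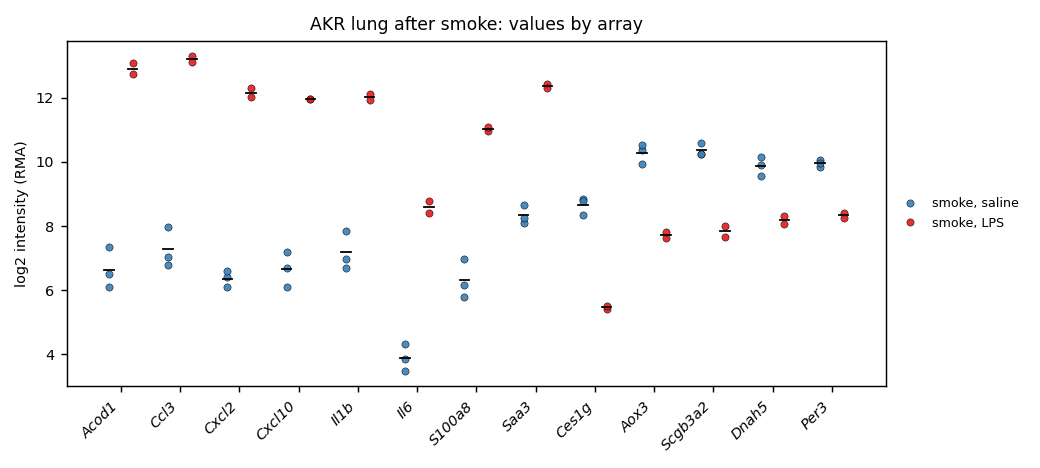
Log2 intensity of 13 genes named in the text on each of the 3 smoke saline arrays (blue) and both smoke LPS arrays (red) of AKR lung; black bars are group means. No gene shown has overlapping groups: the 8 genes on the left, Acod1 to Saa3, are higher with LPS, and the 5 on the right, Ces1g to Per3, are lower. The same held for 29.9% of all genes tested upward and 29.1% downward.

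Genes that sense bacterial products rose with the cytokines, 14 of 15 measured (median 1.64). Clec4e, the macrophage receptor Mincle, had 5.58, 5.16 and 6.05 with saline and 11.60 and 11.49 with LPS (5.95 ± 0.34, adjusted p = 6.4e-07). Nlrp3, the inflammasome sensor, rose by 4.31 ± 0.29, and Cd14, the LPS co-receptor, by 2.91 ± 0.29. Tlr2 rose by 2.88 ± 0.24, whereas the LPS receptor gene Tlr4 itself went from 7.90, 7.85 and 7.82 to 8.76 and 8.79, a rise of 0.91 ± 0.13. These Tlr4 groups did not overlap, and the step is under 1 log2 unit. Irak3, which damps Toll-like receptor signalling, rose by 3.08 ± 0.16.

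Genes that restrain or belong to the NF-kB pathway also rose, 16 of 17 (median 2.09). Tnfaip3, which encodes the ubiquitin-editing inhibitor A20, had 7.39, 7.40 and 7.73 with saline and 10.91 and 10.81 with LPS (3.35 ± 0.27, adjusted p = 6.4e-06). The A20-binding inhibitor gene Tnip3 rose by 3.36 ± 0.27, and the inhibitor genes Nfkbia and Nfkbie by 1.89 ± 0.21 and 2.53 ± 0.19. The phosphatase gene Dusp1 was the member that did not pass, at 0.37.

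Interferon gamma-induced genes rose in full, 16 of 16 measured with a median of 2.25, although Ifng itself did not pass. The chemokine gene Cxcl9 had 5.62, 7.36 and 6.49 with saline and 11.73 and 11.62 with LPS (5.18 ± 0.47, adjusted p = 1.6e-05). Gbp5, a guanylate-binding protein active against intracellular bacteria, rose by 3.95 ± 0.37 from 6.49, 6.80 and 7.07. Both groups stood clear of each other in these genes. Iigp1, an interferon-inducible GTPase, rose by 3.50 ± 0.55, Nos2, the inducible nitric oxide synthase, by 2.21 ± 0.50, and Ciita, the master regulator of MHC class II genes, by 1.11 ± 0.31. The count was 13 without smoke LPS 1 and 14 without smoke LPS 2.

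Type I interferon-stimulated genes gave a count that depended on single arrays: 12 of 18 rose, with a median of 1.43. The array smoke saline 2 stood apart. Irf7, the transcription factor that amplifies the interferon response, had 7.82, 10.87 and 7.66 on the saline arrays and 11.15 and 11.13 on the LPS arrays (2.35 ± 0.80, adjusted p = 0.043). The antiviral gene Rsad2 had 5.82, 8.80 and 6.21 with saline and 10.30 and 10.39 with LPS (3.40 ± 0.79, adjusted p = 0.0077). For Ifit1, an RNA-binding antiviral protein, the saline values of 8.11, 10.93 and 8.39 overlapped the LPS values of 10.87 and 11.15, and the change of 1.87 ± 0.69 did not pass (adjusted p = 0.061). Averaged over the list and set against the mean of the 13 arrays, the saline arrays stood at -1.07, 0.74 and -0.93 and the LPS arrays at 1.30 and 1.39. Without smoke saline 2 all 18 rose, with a median of 2.13. Without smoke saline 1 the count was 7, without smoke saline 3 it was 8, without smoke LPS 1 it was 6, and without smoke LPS 2 it was 3. What sets smoke saline 2 apart was not tested.

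Cxcl10, an interferon-induced chemokine that draws T cells, stands between both programmes. It had 6.11, 7.18 and 6.70 with saline and 11.97 and 11.96 with LPS (5.30 ± 0.39, adjusted p = 3.4e-06), with no overlap and both LPS arrays within 0.02 of each other. Its promoter is shown, from RefSeq on build GRCm38.p6, as the 250 bases before the start on the minus strand. Capitals mark the match to TTTC, any 2 bases and TTTC, a core of the interferon-stimulated response element, which here lies on the opposite strand and begins 213 bases before the start.
Cxcl10, chr5:92348890-92349139: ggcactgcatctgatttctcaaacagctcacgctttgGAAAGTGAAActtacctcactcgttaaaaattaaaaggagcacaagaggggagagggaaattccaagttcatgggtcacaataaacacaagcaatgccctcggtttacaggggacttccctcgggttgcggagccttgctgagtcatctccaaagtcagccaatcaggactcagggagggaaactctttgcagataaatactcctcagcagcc
That pattern was in 821 of the 27025 promoters (3.04%), in 5 of 13 interferon-stimulated genes with a promoter in the set (Ifit1, Ifit3, Oas3, Rsad2 and Stat2), and in 1 of 17 cytokine and chemokine genes, which was Cxcl10.

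Acute-phase genes rose in 8 of 13 cases (median 1.81). Saa3, serum amyloid A3, had 8.09, 8.65 and 8.26 with saline and 12.43 and 12.31 with LPS (4.04 ± 0.62, adjusted p = 6.6e-04). Timp1, an inhibitor of matrix metalloproteinases, rose by 3.71 ± 0.36. Lcn2, the iron-withholding protein lipocalin 2, was already at 12.03, 12.01 and 11.13 with saline and at 13.62 and 13.46 with LPS (1.81 ± 0.45, adjusted p = 0.011). Orm1, orosomucoid 1, was at 11.08, 11.51 and 9.67 with saline and 11.95 and 11.54 with LPS, so that each LPS array exceeded all saline arrays but the change of 0.99 ± 0.69 did not pass (adjusted p = 0.30). Genes of this family share sequence, and a probe set of one may read another. Haptoglobin (Hp) was at 0.06 ± 0.22. The count was 5 without smoke LPS 1 and 5 without smoke LPS 2.

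Genes for effector enzymes of activated macrophages and neutrophils rose in 13 of 15 cases (median 1.83). Acod1, which makes the antimicrobial metabolite itaconate, went from 6.09, 6.49 and 7.34 to 13.08 and 12.73, a rise of 6.26 ± 0.45 (adjusted p = 3.3e-06) or 76.9-fold. Ch25h, which makes 25-hydroxycholesterol, rose by 3.74 ± 0.20, the arginase gene Arg2 by 2.91 ± 0.29 and Cybb, the catalytic subunit of the phagocyte NADPH oxidase, by 2.81 ± 0.27. Ptgs2, the inducible cyclooxygenase of prostaglandin synthesis, did not pass: it had 10.05, 9.73 and 9.53 with saline and 10.30 and 10.14 with LPS (0.45 ± 0.33, adjusted p = 0.32). The largest rise over all genes belonged to BC018473, a transcript known by its cDNA clone name, which went from 5.94, 6.28 and 6.57 to 12.69 and 12.51 (6.34 ± 0.39, adjusted p = 1.1e-06), or 80.9-fold. No overlap was seen for it or for Acod1. The fatty acid receptor gene Gpr84, the schlafen gene Slfn4 and the myeloid receptor gene Trem3 completed the 15 largest rises, at 4.73 ± 0.27, 4.73 ± 0.41 and 4.68 ± 0.37.

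Markers of recruited neutrophils rose in 12 of 14 cases, with a median of 3.35. S100a8, a subunit of calprotectin, had 5.79, 6.16 and 6.99 with saline and 10.95 and 11.09 with LPS (4.71 ± 0.40, adjusted p = 9.5e-06). Trem1, an amplifying receptor of neutrophils and monocytes, rose by 4.61 ± 0.25, the chemokine receptor gene Cxcr2 by 3.82 ± 0.21 and the surface antigen gene Ly6g by 2.75 ± 0.29. The granule genes of maturing neutrophils did not move in the same way: Ngp rose by 1.75 ± 0.19, while Ltf was at 0.50 ± 0.81 and Camp at 0.24 ± 0.10, neither passing.  Without single arrays the count stayed at 12.

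Monocyte and macrophage markers rose in 8 of 12 cases (median 1.82). Itgam, the integrin CD11b of recruited myeloid cells, had 7.23, 7.41 and 7.59 with saline and 11.06 and 10.98 with LPS (3.61 ± 0.15, adjusted p = 7.8e-08). Adgre1, a macrophage surface receptor, rose by 2.80 ± 0.22 and Fcgr4, an activating Fc receptor, by 3.37 ± 0.56. The complement genes C1qa, C1qb and C1qc, typical of resident tissue macrophages, were at -0.26, 0.14 and -0.13, and none of these passed (limma; none had an unadjusted p under 0.05).

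Alveolar macrophage markers were divided, with 6 of 15 rising (median 0.52). Marco, a scavenger receptor for bacteria and particles, had 6.35, 6.17 and 6.36 with saline and 8.37 and 8.51 with LPS (2.15 ± 0.13, adjusted p = 1.1e-06). The fatty acid-binding protein gene Fabp5 rose by 1.64 ± 0.22 and Chil3, a chitinase-like protein, by 1.56 ± 0.50. Identity genes of the resident cell did not pass, with Siglecf at -0.16 ± 0.18, Mrc1 at -0.21 ± 0.28 and Pparg at 0.09 ± 0.12. Leaving out smoke saline 1 or 2 gave a count of 4, and leaving out smoke LPS 1 or 2 gave 3.

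Dendritic cell genes moved both ways, with 6 of 12 rising and 3 falling. Ccl17 and Ccl22, chemokines of activated dendritic cells, rose by 2.79 ± 0.27 and 2.72 ± 0.35. The markers of cross-presenting dendritic cells fell: Clec9a went from 6.99, 7.09 and 7.26 to 6.50 and 5.91 (-0.91 ± 0.22, adjusted p = 0.0092), and Xcr1 changed by -0.70 ± 0.15 (adjusted p = 0.0057). Counts of risen genes ranged from 3 without smoke LPS 1 to 5 without smoke saline 3, with 4 without any other single array, and 1 member rather than 3 fell without smoke LPS 2.

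Lymphocyte genes changed less, and their counts were fragile. Of 8 natural killer and cytotoxic genes 5 rose (median 1.27), among them the granzyme genes Gzmb (2.30 ± 0.46) and Gzma (1.84 ± 0.38), and the count was 2 without smoke LPS 1 and 3 without smoke LPS 2. Of 10 T cell genes 2 rose, against 16.5% of all genes: Cd3g (0.79 ± 0.25) and Cd28 (0.56 ± 0.16). That count was 1 without smoke saline 1 and 0 without smoke saline 2, smoke LPS 1 or smoke LPS 2, against 3 at an unadjusted p under 0.05 with all arrays. Of 8 MHC class II genes 6 rose (median 0.63), with H2-Ab1 at 0.83 ± 0.15. Here the count was 3 without smoke saline 1 or 2 and 2 without smoke LPS 1 or 2.

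Among 13 B cell genes Fcer2a, the low-affinity IgE receptor CD23, was the member that rose, against 16.5% of all genes. It had 6.23, 6.29 and 6.28 with saline and 9.55 and 9.30 with LPS (3.16 ± 0.23, adjusted p = 3.0e-06). The antigen receptor genes Cd79a and Cd79b were at 1.05 ± 0.47 (adjusted p = 0.11) and 0.84 ± 0.30 (adjusted p = 0.053), and on smoke LPS 2 Cd79a (6.96) lay within the saline values of 6.06, 6.78 and 7.07. Cd79a on smoke LPS 1 was 8.42. The list averaged -0.76, -0.58 and -0.46 on the saline arrays and 0.44 and -0.22 on the LPS arrays, relative to the 13 arrays. Without smoke LPS 2 the count was 3.

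**Figure D2:**
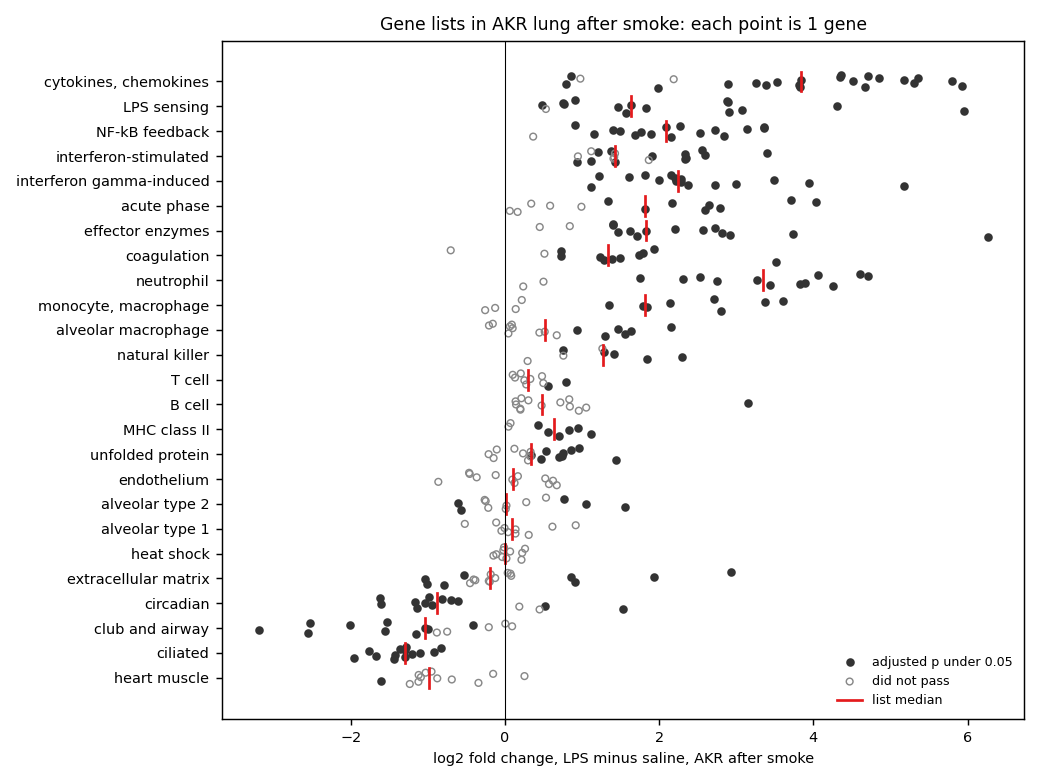
Log2 fold change, LPS minus saline, of each measured gene of 25 lists in smoke-exposed AKR lung (filled: passed; open: did not pass; red bar: list median). Cytokine, neutrophil and interferon gamma-induced genes lie to the right of 0, and club cell, ciliated cell and circadian genes lie mostly to its left.

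Of 9 endothelial activation genes 4 rose: E-selectin (Sele) from 6.34, 6.48 and 6.49 to 9.04 and 8.68 (2.42 ± 0.28, adjusted p = 8.7e-05), Icam1 by 1.57 ± 0.19, Vcam1 by 1.26 ± 0.17 and Angpt2, which destabilises vessels, by 0.91 ± 0.23. Of 12 endothelial identity genes none passed by limma (1 had an unadjusted p under 0.05), with the junction gene Cldn5 at 0.12 ± 0.31 and Pecam1 at 0.17 ± 0.25. The adhesion gene Icam2 was at -0.17 ± 0.31 and did not pass. Angpt2 did not pass without smoke LPS 1 or 2, where the count was 3.

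Coagulation and fibrinolysis genes rose in 10 of 12 cases (median 1.34). F10, coagulation factor X, had 7.13, 7.05 and 7.44 with saline and 10.71 and 10.73 with LPS (3.51 ± 0.23, adjusted p = 1.5e-06). F3, the tissue factor that starts clotting, rose by 1.39 ± 0.20 and Plaur, the urokinase receptor, by 1.74 ± 0.25. The anticoagulant gene Thbd, thrombomodulin, was at -0.70 ± 0.31 and did not pass (adjusted p = 0.11). Groups stood apart for F10, F3 and Plaur.

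Of 15 club and airway secretory genes 10 fell (median -1.04 against -0.00 over all genes), and 4 of them were among the 15 largest falls over all genes. Like the other lists, this one was written with earlier results of these data known, so these counts are a description and not a test. Ces1g, a carboxylesterase, fell furthest, from 8.86, 8.78 and 8.35 to 5.42 and 5.52 (-3.19 ± 0.17, adjusted p = 5.0e-07). Aox3, an aldehyde oxidase, went from 10.38, 9.94 and 10.52 to 7.63 and 7.83 (-2.55 ± 0.22), and the secretoglobin gene Scgb3a2 from 10.60, 10.26 and 10.24 to 8.01 and 7.67 (-2.52 ± 0.37, adjusted p = 4.9e-04). No LPS array reached a saline array in these 3 genes. Pon1, the lactonase paraoxonase 1, changed by -2.0 ± 0.29 and Cyp2f2, the club cell cytochrome P450, by -1.0 ± 0.15. Scgb1a1, the defining club cell gene, changed by -0.41 ± 0.09, and the mucin genes Muc5b and Muc5ac were at 0.09 ± 1.34 and -0.21 ± 0.40 without passing. The list averaged 0.93, 0.15 and 0.79 on the saline arrays and -0.40 and -0.85 on the LPS arrays, relative to the 13 arrays. Leaving out single arrays, 9 or 10 members fell.

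The other 11 of the 15 largest falls were in none of the 33 lists. The potassium channel gene Kcnj13 went from 10.54, 10.21 and 10.05 to 8.04 and 7.94 (-2.27 ± 0.24, adjusted p = 5.0e-05). Lrrc26, an auxiliary subunit of potassium channels in secretory epithelia, changed by -2.55 ± 0.47, the amino acid transporter gene Slc6a15 by -2.48 ± 0.22, the claudin gene Cldn8 by -2.25 ± 0.27 and the copper pump gene Atp7b by -2.21 ± 0.19. Fam13a, a gene linked in human studies to chronic obstructive lung disease, went from 10.66, 10.21 and 9.71 to 8.09 and 8.08 (-2.10 ± 0.27, adjusted p = 1.9e-04). The remaining 5 were 1810010H24Rik, Slc10a5, Gfra1, Slc4a5 and Cnksr2, between -2.10 and -2.02. In the opposite direction, Slc26a4, the anion exchanger pendrin, rose from 5.40, 5.47 and 6.07 to 10.07 and 10.12 (4.44 ± 0.18, adjusted p = 7.8e-08).

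All 13 ciliated cell genes fell, with a median of -1.30. Cfap43, a ciliary axoneme protein, changed most, by -1.96 ± 0.40 (adjusted p = 0.0038). Hydin, of the central pair of the axoneme, had 9.89, 9.36 and 9.31 with saline and 7.94 and 7.59 with LPS (-1.76 ± 0.38). The dynein heavy chain gene Dnah5 changed by -1.68 ± 0.43, and Foxj1, the master regulator of motile cilia, by -0.92 ± 0.30. Both LPS arrays lay below all saline arrays for each of the 13 genes, against 29.1% of all genes. The number that fell was 8 without smoke saline 1, 8 without smoke LPS 1 and 2 without smoke LPS 2. Heart muscle genes, whose RNA can come from tissue carried along in dissection, fell in 1 of 12 cases (Myh7, -1.61 ± 0.14), against 15% of all genes. The source of that RNA in these samples was not tested. The list median was -0.99, and both LPS arrays lay below all saline arrays for 1 of these 12 genes. Saline arrays had list means of 0.75, 0.28 and -0.63 and LPS arrays -0.00 and -1.39, so the groups overlapped. Myh6 lay between 9.08 and 11.59 on the 5 arrays, with its groups overlapping. The part of heart tissue in the fall of ciliated genes was not tested. Of other tissue that dissection can carry along, none of 4 fat cell genes passed (limma, none at an unadjusted p under 0.05), and of 3 red blood cell genes Car2, which other cells use too, rose (1.14 ± 0.32).

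Alveolar epithelium showed no common shift. Of 12 alveolar type 2 genes 3 rose and 2 fell (median 0.02), against 16.5% and 15% of all genes. The lysosomal gene Lamp3 rose by 1.56 ± 0.37, Napsa by 1.05 ± 0.33 and the collectin gene Sftpd by 0.77 ± 0.14. Abca3, which loads surfactant lipid, changed by -0.57 and the transcription factor gene Nkx2-1 by -0.60 ± 0.10. Without smoke LPS 2 the number that rose was 1, without smoke LPS 1, smoke saline 1 or smoke saline 2 it was 2, and without smoke saline 3 it was 5. Of 12 tight junction and barrier genes 1 fell, occludin (Ocln, -0.36 ± 0.12), with a median of 0.04. Sftpc was at -0.26 ± 0.16 (adjusted p = 0.25). None of 10 alveolar type 1 genes passed by limma (1 had an unadjusted p under 0.05), with Ager at 0.31 ± 0.27.

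**Figure D3:**
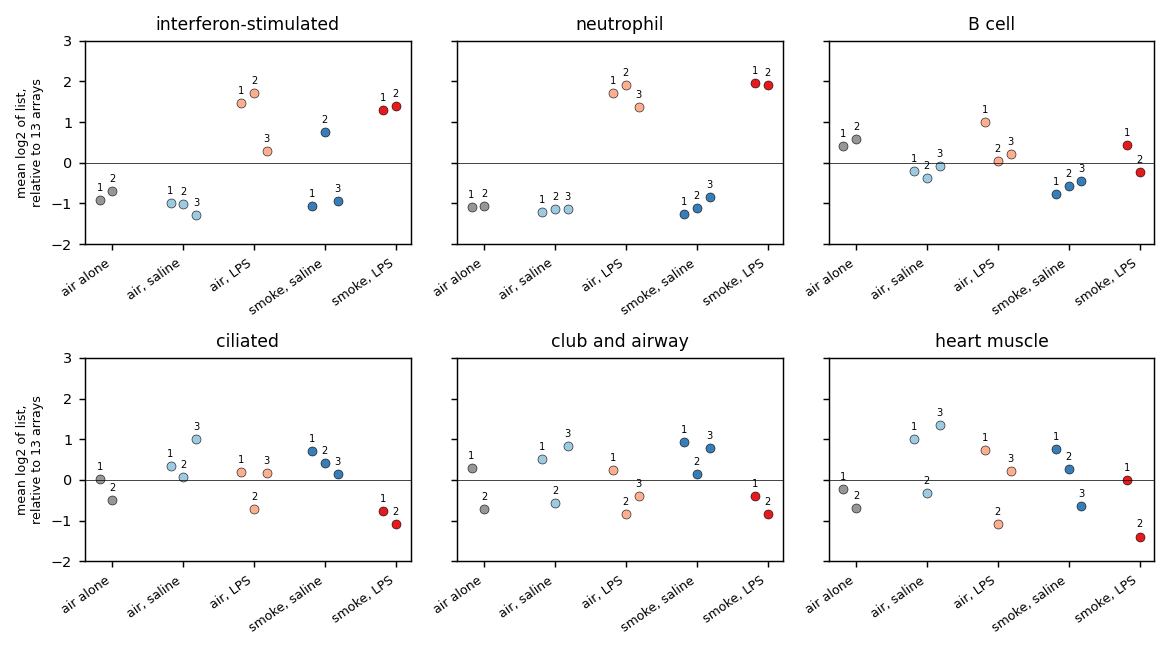
Mean log2 intensity of the members of 6 lists on each of the 13 AKR arrays, relative to the mean of those arrays; numbers are replicates. Smoke saline 2 stands at 0.74 in the interferon-stimulated list, and the heart muscle list spreads from 0.75 to -1.39 over the smoke arrays.

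Clock genes fell in 10 of 14 cases and rose in 2 (median -0.88). Per3, a repressor of the clock, had 10.06, 9.84 and 9.96 with saline and 8.42 and 8.25 with LPS (-1.62 ± 0.13, adjusted p = 8.3e-06). The output factor gene Dbp changed by -1.61 ± 0.26, the nuclear receptor gene Nr1d1 by -1.17 ± 0.18 and Per2 by -0.82 ± 0.17. Bhlhe40, which represses clock output genes, rose by 1.54 ± 0.21. The activator genes Arntl and Clock were at 0.45 ± 0.19 and 0.19 ± 0.09 without passing. Without smoke saline 1 or smoke LPS 2 the number that rose was 1, and 8 to 10 fell without any single array. The hour of dissection is not given in the sources used here, so hour and treatment cannot be told apart for these genes.

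Genes of the unfolded protein response rose in 9 of 17 cases, by small amounts (median 0.34). The endoplasmic reticulum chaperone gene Hspa5 went from 11.75, 11.87 and 11.53 to 12.49 and 12.45 (0.76 ± 0.11, adjusted p = 5.1e-04) and the transcription factor gene Xbp1 rose by 0.96 ± 0.12. The count was 6 without smoke LPS 1 and 5 without smoke LPS 2. Of 10 cytosolic and mitochondrial heat shock genes none passed by limma, and none had an unadjusted p under 0.05. Among 13 cell cycle genes Mki67 rose (1.40 ± 0.32) and Birc5 fell (-0.43 ± 0.12), against 16.5% and 15% of all genes. Without smoke LPS 1 none passed (limma, with 3 at an unadjusted p under 0.05 on all arrays), without smoke LPS 2 none fell, and without smoke saline 2 the number that rose was 2.

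Of 18 matrix genes 4 rose, 4 fell and 10 did not pass, shares close to those over all genes. Tnc, the injury-induced matrix protein tenascin C, had 7.22, 7.14 and 7.27 with saline and 10.29 and 10.002 with LPS (2.93 ± 0.16, adjusted p = 5.4e-07). Lox, the collagen cross-linking enzyme, rose by 1.93 ± 0.31 and fibronectin (Fn1) by 0.85 ± 0.19. The collagen gene Col1a2 went from 10.30, 10.47 and 10.15 to 9.33 and 9.24 (-1.02 ± 0.16) and Fbln1 changed by -1.04 ± 0.14. The number that fell was 2 without smoke saline 1, smoke saline 2 or smoke LPS 2.

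Genes that smoke is known to induce did not move together. Hmox1, heme oxygenase 1, rose from 8.92, 8.97 and 8.38 to 10.72 and 10.44 (1.83 ± 0.19, adjusted p = 3.9e-05). Nqo1, a quinone reductase, fell from 8.84, 8.61 and 7.53 to 7.21 and 7.14 (-1.15 ± 0.32, adjusted p = 0.017), and Aldh3a1, an aldehyde dehydrogenase, from 10.36, 9.97 and 9.23 to 8.37 and 7.74 (-1.80 ± 0.42, adjusted p = 0.0079). On smoke saline 3 both of these genes lay nearest to the LPS arrays. The cystine transporter gene Slc7a11 was at 10.11, 10.64 and 8.75 with saline and 10.80 and 10.55 with LPS, so the groups overlapped (0.84 ± 0.45, adjusted p = 0.18). Of 15 NRF2 targets 2 rose and 3 fell (median -0.03), shares close to the 16.5% and 15% over all genes. Of 7 aryl hydrocarbon receptor targets on the array, Cyp1a1, Cyp1a2 and Ahrr were too dim to be tested. Cyp1a1 had 5.69, 5.93 and 5.85 with saline and 5.06 and 5.39 with LPS. Of the 4 targets tested 2 fell, with Nqo1 counted in both lists. Without smoke saline 3 the numbers that fell were 5 and 3, without smoke saline 1 they were 1 and 1, without smoke saline 2 they were 2 and 1, without smoke LPS 1 they were 2 and 1, and without smoke LPS 2 they were 1 and 0.

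The array also carries probe sets for primary microRNA transcripts, which read the precursor or its host RNA and not the mature microRNA. Mir155, processed to a microRNA of activated immune cells, had 5.89, 6.41 and 6.31 with saline and 7.50 and 7.63 with LPS (1.36 ± 0.23, adjusted p = 0.0011). Mir142, of blood cells, rose by 2.10 ± 0.16 and Mir146b, whose mature form targets Toll-like receptor signalling, by 1.19 ± 0.13. These 3 were picked after their values were seen, and their groups did not overlap, as held upward for 29.9% of all genes. The mature 5p arms made from them are given from RefSeq (GRCm38.p6, plus strand), with the seed, bases 2 to 8, in capitals. No seed is shared among them.
mmu-miR-155-5p, chr16:84714143-84714165: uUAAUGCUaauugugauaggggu
mmu-miR-142a-5p, chr11:87756867-87756887: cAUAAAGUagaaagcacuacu
mmu-miR-146b-5p, chr19:46342790-46342811: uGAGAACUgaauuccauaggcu

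The response after smoke was then set against that after room air in the same strain, which asks whether prior smoke changed the reaction to LPS. After air 2754 genes passed (19.2%), 1472 of them higher with LPS (10.2%) and 1282 lower (8.92%). Of the genes that rose after smoke 53.1% also rose after air, and these 1260 genes were 85.6% of those that rose after air. Of the falls after smoke 43.8% were shared, which was 73.7% of the falls after air. No gene passed in opposite directions (limma). Of the 1260 genes that rose and the 945 that fell in both, 1738 had the larger change after smoke. Neither count is a test of the difference between the responses, which is given gene by gene below. Across the 14370 genes, which are not independent replicates, both sets of changes correlated with Pearson's r of 0.890 and Spearman's rho of 0.808. The air LPS group was less uniform, since air LPS 3 was lower in interferon-stimulated genes (0.29) than air LPS 1 and 2 (both at or above 1.47), relative to the 13 arrays. It was lower in cytokine genes too (1.74 against 2.54 and 2.66) and in LPS sensing genes (0.75 against 1.15 and 1.30). In acute-phase genes it was higher (1.43 against 1.17 and 1.18). The part of this array in the counts above was not tested.

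**Figure D4:**
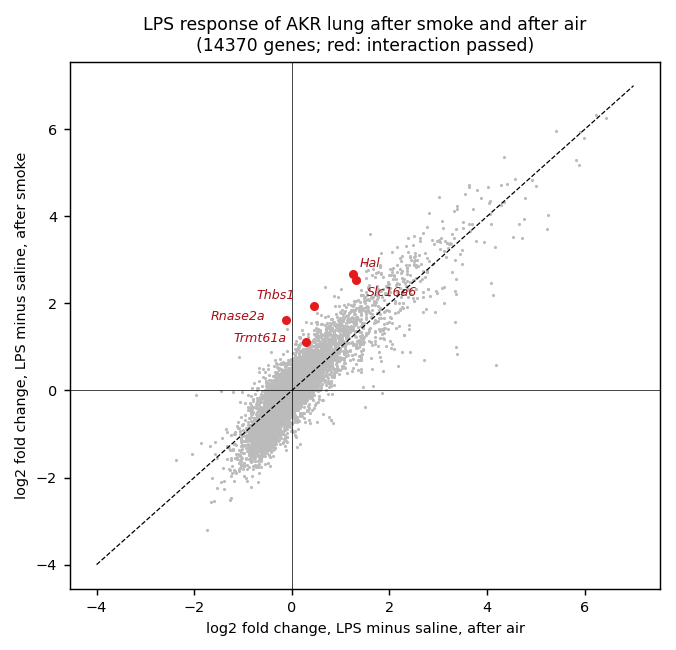
Log2 fold change with LPS after smoke against that after room air for 14370 genes of AKR lung; red points are the 5 genes past the interaction test and the dashed line marks equal change. Most genes lie near the line, and the 5 red genes lie above it.

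The difference between both responses, tested gene by gene as the smoke by LPS interaction, passed for 5 genes (0.0348%), all more positive after smoke, while 1219 had an unadjusted p under 0.05. Rnase2a, a ribonuclease of the eosinophil-associated family, had 4.60, 4.64 and 4.82 with smoke and saline and 6.24 and 6.36 with smoke and LPS. With air it had 4.78, 4.74 and 4.80 with saline and 4.69, 4.64 and 4.63 with LPS, so the smoke LPS arrays stood above all the others and the difference of responses was 1.73 ± 0.15 (adjusted p = 0.0011). Its saline and air LPS values lay below the 20th percentile of their arrays (4.91 to 5.01), and it was tested only because both smoke LPS arrays exceeded their 40th percentiles of 6.19 and 6.22. The size of the difference is therefore uncertain, being taken against signal not shown to be above background. Entry to the test rested on the same arrays that make the difference, so the call of this gene is a description. Copies of this family are alike in sequence, and the probe set may read more than 1 of them. Hal, histidine ammonia-lyase, rose by 2.68 ± 0.09 after smoke and by 1.25 ± 0.08 after air, a difference of 1.43 ± 0.13 (adjusted p = 0.0011). Its values were 9.67 and 9.51 with smoke and LPS and 8.28, 8.30 and 8.30 with air and LPS, while the saline arrays of both groups lay between 6.76 and 7.11.

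Slc16a6, of the monocarboxylate transporter family, rose by 2.54 ± 0.10 after smoke and 1.32 ± 0.09 after air (difference 1.23 ± 0.14, adjusted p = 0.0082). For this gene, Thbs1 and Trmt61a the smoke and air groups differed with saline as well, the smoke saline arrays lying below all air saline arrays. Slc16a6 had 6.27, 6.41 and 6.17 with smoke and saline against 6.72, 6.64 and 6.66 with air and saline. Thbs1, the matrix and platelet protein thrombospondin 1, had 10.83, 10.64 and 10.59 with smoke and saline against 11.38, 11.58 and 11.38 with air and saline. With LPS it had 12.63 and 12.62 after smoke and 11.87, 11.88 and 11.93 after air, so its order between smoke and air was turned round by LPS (difference of responses 1.49 ± 0.20, adjusted p = 0.038). Trmt61a, a tRNA methyltransferase, had 6.82, 6.75 and 6.80 with smoke and saline, 7.22, 7.11 and 7.11 with air and saline, and a difference of 0.82 ± 0.11 (adjusted p = 0.038). Without smoke LPS 1 the number of genes that passed was 1, without smoke LPS 2 it was 2, without smoke saline 1, smoke saline 2, air saline 1 or air LPS 1 it was 3, without air LPS 3 it was 9 and without smoke saline 3 it was 12. Neither Thbs1 nor Trmt61a passed without smoke LPS 1 or 2, and Slc16a6 failed there too. Rnase2a was not tested without smoke LPS 1 or 2, since it then exceeded the 40th percentile on 1 array only. With all 31 arrays in the fit none of the 5 passed (limma; 0 genes in all, and 1000 at an unadjusted p under 0.05), with the same differences. Of the interactions below the threshold, Ces1g was at -1.46 ± 0.23 (adjusted p = 0.061) and Slc26a4 at 1.43 ± 0.24 (adjusted p = 0.083).

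**Figure D5:**
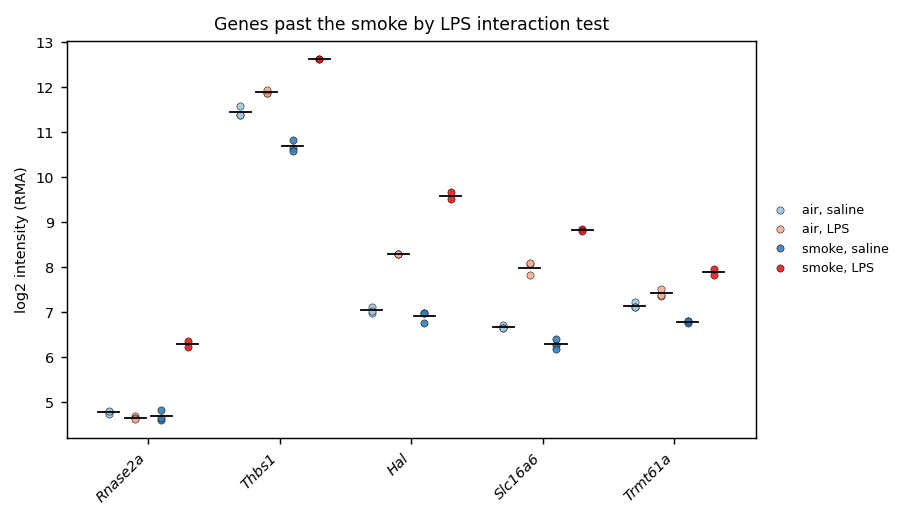
Log2 intensity on each array of the 5 genes past the smoke by LPS interaction test, in the 4 instilled AKR groups; black bars are group means. The smoke LPS arrays (red) are the highest for each gene, and for Thbs1, Slc16a6 and Trmt61a the smoke saline arrays (blue) are the lowest.

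The ciliated genes, which all fell after smoke, gave no call after air by limma (5 of 13 were lower at an unadjusted p under 0.05), with a median of -0.57. The interaction did not pass for any of them and had a median of -0.76. Heat shock genes gave the reverse: 7 of 10 fell after air (median -0.66) where none passed after smoke. The air saline arrays stood at 0.08, 0.98 and 0.67 in that list and the smoke saline arrays at 0.01, -0.01 and -0.33. No heat shock gene passed the interaction, so neither list is shown to differ between smoke and air. Interferon-stimulated genes rose in 18 of 18 cases after air against 12 after smoke, again with no interaction past the threshold. Without smoke saline 2 all 18 rose after smoke too. Interferon gamma-induced genes had a median of 2.25 after smoke and 3.03 after air, all rising in both, and cytokine genes 3.83 and 4.08. No gene of either list passed the interaction.

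The last comparison asks whether the 2 strains differed in the response to LPS after smoke. In the fit of all 31 arrays 266 of 14857 genes passed the strain by LPS interaction (1.79%), 214 with a higher and 52 with a lower value in AKR. Without both doubted C57 arrays 135 of 14830 passed (0.91%), 114 higher and 21 lower, and 99 genes passed both ways. The contrast within C57 itself gave 0 genes by limma with all arrays (1310 at an unadjusted p under 0.05) and 3027 without the pair (20.4%), so the labels of the pair decide much of this comparison. The array medians of the 13 AKR arrays were 6.80 to 6.90 and those of the 6 C57 smoke arrays 6.96 to 7.10. The 3 AKR arrays of room air alone titled 6 weeks had 7.05, 7.09 and 7.06, within the range of the C57 smoke arrays. Strain and this offset between sets of arrays therefore cannot be told apart in this comparison. Each value below is a difference between responses that were each taken within a strain. That removes a common shift but not a difference in scale, which was not tested.

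BC018473, the gene with the largest rise in AKR, was not raised in C57: its values there lay between 5.37 and 5.66 on all 6 smoke arrays. The responses differed by 6.30 ± 0.39 (adjusted p = 5.8e-10) and, without the pair, by 6.34. Ifi202b, an interferon-inducible DNA sensor, rose in AKR from 5.90, 6.34 and 6.01 to 9.50 and 9.69 and lay between 3.86 and 4.11 on all C57 smoke arrays (difference 3.35 ± 0.37, adjusted p = 1.9e-05; 3.35 without the pair). Neither call rests on the doubted pair, since no C57 array departed from the others. A gene at this level on every array of a strain can be unexpressed there or unread by the probe set, and these cannot be told apart here.

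Fcer2a, Ccl5, Treml4 and Adgre4 stood higher on the C57 saline arrays than on the AKR saline arrays, although whether the arrays of both strains were normalised together is not given in the sources used here. Fcer2a had 8.54, 8.72 and 9.03 on the C57 smoke saline arrays and 9.40, 9.35 and 8.32 on the C57 smoke LPS arrays, against 6.23 to 6.29 on the AKR saline arrays. Its responses differed by 2.90 ± 0.35 (adjusted p = 6.4e-05; 2.41 without the pair). The chemokine gene Ccl5 had 10.37, 10.49 and 11.27 in C57 with saline, where the AKR arrays had 7.40, 8.16 and 7.63, and the difference of responses was 2.93 ± 0.55 (1.98 without the pair, adjusted p = 0.0075). The myeloid receptor genes Treml4 and Adgre4 differed by 3.46 ± 0.61 and 3.21 ± 0.52, which fell to 2.48 and 2.49 without the pair, and the guanylate-binding protein gene Gbp2b by 2.51 ± 0.49 (2.23 without it). In the opposite direction Slc6a15 differed by -2.12 ± 0.43 and the iodotyrosine deiodinase gene Iyd by -1.57 ± 0.30 (-1.41 and -1.35 without the pair). With the 4 groups compared alone, 8 genes passed in all, and Adgre4, Treml4, Gbp2b, Ccl5, Iyd and Slc6a15 were not among them. The last 5 of these also failed without smoke LPS 1 of AKR, and Gbp2b and Slc6a15 without smoke LPS 2. Slc7a11 shows what the pair decides: its change in C57 was 1.79 with all arrays and 4.32 without the pair, and the difference between strains went from -0.95 (adjusted p = 0.75) to -3.47 (adjusted p = 0.0038).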

How the data were processed

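Lung RNA of 31 mice was hybridised to Affymetrix arrays as biotin-labelled cRNA, per the labels' protocols. The deposited values are log2 intensities of 35556 probe sets, and RMA is named in the submitters' processing notes, with no version. A genome build is not given in the sources used here. Probe sets with exactly 1 gene symbol in the platform annotation (21789; 1621 had several) were used, with symbols updated through Entrez identifiers in RefSeq's table (GRCm38.p6). The other probe sets, of 23410 annotated in all, were not used. Each gene was represented by its probe set of highest mean, and 14370 of 19938 genes were tested, those exceeding an array's own 40th percentile on 2 arrays or more. limma 3.58.1 in R 4.3.3 (lmFit, eBayes, Benjamini-Hochberg adjustment, threshold 0.05) was fitted to 13 AKR arrays in 5 groups, with 8 residual degrees of freedom. The strain comparison used all 31 arrays, or 29 without the doubted pair. Arrays are labelled biological replicates, and p-values measure only the spread between them; with 2 arrays in a group the number of arrays limits the precision. On simulated data with known changes the fit recovered 75% of genes changed by 1 log2 unit and 97% of those changed by 2 in the smoke comparison. The simulation changed 200 of 14370 genes and drew noise independently for each gene and array, and 7 unchanged genes passed. In the data 4531 genes passed and noise may be shared between genes, so these rates need not hold there.

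The comparison, the 33 gene lists and the rule for named genes were chosen with earlier results of these data known. The rule takes the 15 largest changes each way, at most 4 genes per list by size of change, and for each interaction the 10 largest each way. Other list members and genes in the text, such as Slc26a4, Cxcl3, Tlr4 and the microRNA precursors, were chosen after their values were seen. Alternatives were other sets of arrays, filters, probe set summaries, normalisations, weights, a replicate block and leaving out single arrays.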

Additional observations from a re-analysis of the deposited data

Results flagged for a closer look

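In AKR lung 5 genes passed the interaction test over all genes, which compares the change with LPS between smoke and air. The difference, smoke minus air, was 1.73 ± 0.15 for Rnase2a, 1.49 ± 0.20 for Thbs1, 1.43 ± 0.13 for Hal, 1.23 ± 0.14 for Slc16a6 and 0.82 ± 0.11 for Trmt61a. Each of the 5 had both smoke LPS arrays above all air LPS arrays. The value of Rnase2a is taken against signal below the 20th percentile of the other arrays, so its size is uncertain. Rnase2a entered the test only through the smoke LPS arrays, which also make the difference, so its call is a description. It was not tested without smoke LPS 1 or 2 or with the stricter filter. None of the 5 passed with all 31 arrays in the fit. Thbs1 lost its call in 13 of 23 alternatives, Trmt61a in 14 of 23 and Slc16a6 in 3 of 23.

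After smoke, the change with LPS differed between the strains for the 9 genes named in the report, both with and without the doubted C57 arrays. The difference, AKR minus C57, was 6.30 for BC018473, 3.46 for Treml4, 3.35 for Ifi202b, 3.21 for Adgre4, 2.93 for Ccl5, 2.90 for Fcer2a and 2.51 for Gbp2b. It was -2.12 for Slc6a15 and -1.57 for Iyd. Under the 21 alternatives BC018473, Ifi202b and Fcer2a kept their calls. BC018473 and Ifi202b were flat on all C57 smoke arrays. There they can be unexpressed or unread by the probe set, which no alternative can tell apart. Gbp2b and Slc6a15 lost theirs in 3, Treml4, Ccl5 and Iyd in 2 and Adgre4 in 1, the comparison of the 4 groups alone being among these for each. With all arrays under their labels the C57 change is a mean over arrays that go opposite ways, so for genes that moved in C57 these values are larger in size than those without the pair.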

How the results depend on the processing

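Of the 157 genes followed in the smoke comparison, none changed direction under any alternative, and 2546 of 2661 gene and alternative pairs stayed on their side of the threshold. The count of 4531 ranged from 4147 to 5161 over the alternatives that kept every AKR smoke array and used no array weights. It was 6492 with array weights, whose iteration stopped before its tolerance. Leaving out single arrays gave 2353 to 4326, with 1317 to 2223 higher and 978 to 2103 lower. Shifting arrays to a common median gave 2765 higher and 1737 lower. The smoke by LPS count of 5 was 0 (0 higher; limma, 1000 at an unadjusted p under 0.05) with all 31 arrays, 18 (15 higher, 3 lower) with 29 arrays, 14 (14 higher) with a common median and 455 (312 higher, 143 lower) with array weights. Leaving out single arrays gave 1 to 12, with 1 to 8 higher and 0 to 4 lower. The strain count of 266 was 135 (114 higher, 21 lower) with 29 arrays, 8 (8 higher, 0 lower) with the 4 groups alone and 1978 (1156 higher, 822 lower) with array weights. Leaving out single arrays gave 15 to 910, with 14 to 651 higher and 1 to 259 lower. The causes were not tested.

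With the replicate number as a block the counts were 4147 (2141 higher, 2006 lower), 5 (4 higher, 1 lower) and 180 (24 lower). Deviations of same-numbered air arrays correlated at -0.06, 0.55 and 0.28. Those of smoke arrays, at 0.43 and -0.11, cannot settle a pairing because 2 LPS arrays mirror each other. The samples are therefore taken to share only a number.

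With 2 LPS arrays the spread of that group is largely borrowed from the other groups. Signal close to background limits the folds of dim genes such as Il6, and the LPS dose, time and smoke exposure are uncertain.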
